A study of Mus musculus with 6 samples.

Results

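Aminoacyl-tRNA synthetases are the enzymes that load each amino acid onto its transfer RNA. The 36 genes described here were taken by symbol from the deposited expression tables: 20 names for cytosolic enzymes and 16 names ending in 2 for mitochondrial enzymes. Of these, 35 had an entry of their own among 21572 symbols, 19 cytosolic and 16 mitochondrial, and all 35 passed the filter on low values (a mean of at least 0.5 FPKM, the authors' length-scaled fragment level). Aars, for the alanyl enzyme, was listed only in an entry joined with its neighbour Exosc6, so fragments of both genes cannot be told apart there. It is described separately and is not counted in the cytosolic class.

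Each synthetase recognises 1 amino acid and its matching tRNAs, joins them in a reaction that uses ATP, and so supplies the ribosome with charged tRNA. Most amino acids have one nuclear gene for the cytosolic enzyme and another for the enzyme imported into mitochondria, where the respiratory chain proteins encoded by mitochondrial DNA are made. Several cytosolic synthetases sit together in a multisynthetase complex held by scaffold proteins, and a number of cytosolic synthetase genes are known targets of the transcription factor ATF4. Kars and Gars are known to make both the cytosolic and the mitochondrial enzyme from one gene, so their mRNA level stands for both compartments.

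Polyadenylated RNA came from the soleus, a slow muscle of the lower hindlimb, of C57BL/6 mice, all adult. There were 6 libraries in 3 groups of 2: soleus of Dach2-/-/Hdac9-/- mice denervated for 3 days, wild-type (WT) soleus denervated for 3 days, and innervated WT soleus. Hdac9 encodes a class IIa histone deacetylase and Dach2 a nuclear factor that modulates transcription, and the series asked which genes depend on the pair after loss of the nerve. Innervated muscle of the deleted genotype was not analysed here, so in any comparison of denervated Dach2-/-/Hdac9-/- muscle with innervated WT muscle the genotype and the denervation cannot be told apart. The labels do not say whether libraries of a group came from separate mice or whether muscles were pooled, so p-values reflect only how far libraries of a group differ, a spread that may be technical.

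Libraries held 25529434 to 46305449 assigned fragments. Dach2 was listed at 0.961 and 0.681 FPKM (fragments per unit of transcript length, with 1 scale per library) in Dach2-/-/Hdac9-/- libraries, against 0.519 and 0.536 in denervated WT and 3.85 and 4.29 in innervated WT libraries. Hdac9 was at 0.534 and 0.181 FPKM, against 1.83 and 0.285 in denervated WT and 4.10 and 3.14 in innervated WT libraries. Values over a whole gene include exons outside a deleted stretch and do not check a deletion, so the group is called DKO-labelled here. On the second principal component, which held 14.8% of the variance, denervated WT replicate 2 lay at 40.1 and replicate 1 at 11.0. The DKO-labelled libraries lay on the other side, at -33.6 and -20.5, and the innervated WT libraries at 0.6 and 2.5. The 2 libraries of denervated WT were the least alike (correlation across 12247 genes 0.971 in DKO-labelled, 0.961 in denervated WT and 0.977 in innervated WT muscle). Class results are therefore given with and without denervated WT replicate 2. The sample numbers fall into 2 runs, each with 1 library per group, and changes within each run are given for some genes.

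Promoter sequence is shown for the cytosolic genes whose start region holds one of the sequence patterns searched, since these genes are compared by their response further on. RefSeq windows on GRCm38, from 250 bases before to 50 bases after an annotated start, were found for 27 of the 36 members, 13 cytosolic with Aars included and 14 mitochondrial. The letters TGATGNAA, the core of the C/EBP-ATF response element bound by ATF4 dimers, occurred on either strand in 5 of 13 cytosolic windows (Aars, Gars, Iars, Tars and Yars) and in 0 of 14 mitochondrial windows, where 4.51% of 27025 genes held them. The letters CACGTG, an E-box that reads the same on both strands and is bound by MYC with MAX, occurred in 4 of 13 cytosolic windows (Aars, Farsb, Iars and Tars) and 1 of 14 mitochondrial windows (Ears2), with 8.09% over all genes. Counting only bases before the start left 3 cytosolic windows with the first pattern and 3 with the second, against 3.91% and 6.86% of all genes. No match overlapped another pattern's match, and a match of letters is not a measured site. In the stretches given 5′ to 3′ in the direction of the gene, capitals mark the matches. They cover chr6:55037941-55038020 (+) for Gars, chr13:49682055-49682149 (+) for Iars, chr15:11399633-11399718 (-) for Tars, chr4:129189843-129189922 (+) for Yars, chr1:78488878-78488957 (-) for Farsb and chr8:111033692-111033861 (+) for Aars.
Gars: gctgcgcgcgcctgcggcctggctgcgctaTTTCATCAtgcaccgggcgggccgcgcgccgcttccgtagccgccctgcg
Iars: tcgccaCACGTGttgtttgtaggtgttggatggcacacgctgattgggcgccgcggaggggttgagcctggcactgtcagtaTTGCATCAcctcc
Tars: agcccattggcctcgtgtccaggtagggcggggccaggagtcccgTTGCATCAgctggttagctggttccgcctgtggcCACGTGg
Yars: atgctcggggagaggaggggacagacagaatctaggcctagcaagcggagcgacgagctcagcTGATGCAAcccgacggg
Farsb: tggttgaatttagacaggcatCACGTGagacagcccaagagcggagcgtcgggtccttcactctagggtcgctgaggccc
Aars: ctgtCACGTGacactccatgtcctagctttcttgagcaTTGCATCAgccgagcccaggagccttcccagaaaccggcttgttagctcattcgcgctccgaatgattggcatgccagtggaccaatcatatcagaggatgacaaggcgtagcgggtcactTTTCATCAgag
The match of Gars began 30 bases before the start and that of Tars 15 bases before it. Iars and Yars held theirs just inside the transcript, and Aars held one 112 bases upstream and another just after its start.

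The first comparison set denervated against innervated WT soleus. Of 19 cytosolic synthetase mRNAs, 10 rose after 3 days without the nerve and 0 fell, by 1.53-fold for Farsa to 3.13-fold for Dars. Of 16 mitochondrial synthetase mRNAs, Ears2 rose 2.02-fold, Fars2 fell 1.77-fold and Sars2 fell 1.96-fold. Over all 12247 genes tested, 14.4% were called higher and 14.3% lower in the same comparison (edgeR's quasi-likelihood test, Benjamini-Hochberg adjusted p under 0.05). The median log2 change was 0.61 over the cytosolic class and 0.08 over the mitochondrial class, beside 0.00 over all genes. The mean log2 change was 0.67 for the cytosolic class and -0.02 for the mitochondrial class, whose mean and median thus lie on opposite sides of 0. In bulk muscle, fewer cells of a type and less RNA per cell cannot be told apart.

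Dars, for the aspartyl enzyme of the multisynthetase complex, changed most. Its level was 100 and 147 FPKM in DKO-labelled, 110 and 111 FPKM in denervated WT and 36 and 35.1 FPKM in innervated WT soleus. Every denervated library lay far above both innervated ones, without overlap. The log2 change in denervated against innervated WT was 1.65 ± 0.21 (SE, adjusted p = 0.00502), with 1.61 and 1.68 within the first and the second run of sample numbers. By FPKM, Dars ranked 1 of 19 cytosolic genes in both denervated WT libraries and 5 of 19 in both innervated WT libraries.

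Gars, for the glycyl enzyme, was at 72.5 and 64.5 FPKM in DKO-labelled, 58.7 and 64.5 FPKM in denervated WT and 23.7 and 27.0 FPKM in innervated WT soleus. Kars, for the lysyl enzyme and likewise shared with mitochondria, was at 112 and 98.2 FPKM in DKO-labelled, 93.3 and 94.7 FPKM in denervated WT and 53.7 and 46.9 FPKM in innervated WT soleus. The denervated libraries of both genes lay above both innervated libraries, without overlap. In denervated against innervated WT the log2 change was 1.33 ± 0.15 for Gars (adjusted p = 0.00415) and 0.97 ± 0.15 for Kars (adjusted p = 0.00818). The Kars locus lies 53 bases from Terf2ip on mm9, and with no strand setting given, fragments near that boundary could belong to either gene.

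Hars, for the histidyl enzyme, was at 32.7 and 34.6 FPKM in DKO-labelled, 36.2 and 54.3 FPKM in denervated WT and 19.0 and 20.4 FPKM in innervated WT soleus. The highest value was denervated WT replicate 2, and even the lowest denervated library lay above both innervated ones. Its log2 change in denervated against innervated WT was 1.26 ± 0.22 (adjusted p = 0.0101), 0.97 within the first run and 1.48 within the second. Vars, for the valyl enzyme, was the lowest of the 19 in innervated muscle, at 20.5 and 18.3 FPKM in DKO-labelled, 18.5 and 22.5 FPKM in denervated WT and 8.77 and 9.96 FPKM in innervated WT libraries. It ranked 15 of 19 in every denervated library and 19 of 19 in both innervated ones. The log2 change of Vars in denervated against innervated WT was 1.23 ± 0.17 (adjusted p = 0.0059).

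Lars and Rars, for the leucyl and arginyl enzymes of the complex, followed the same order. Lars was at 34.4 and 37.4 FPKM in DKO-labelled, 31.6 and 44.5 FPKM in denervated WT and 17.6 and 20.8 FPKM in innervated WT soleus. Rars was at 34.4 and 41.6 FPKM in DKO-labelled, 28.5 and 35.3 FPKM in denervated WT and 16.8 and 18.3 FPKM in innervated WT soleus. For both genes all denervated libraries lay above all innervated ones. In denervated against innervated WT the log2 change was 1.03 ± 0.21 for Lars and 0.89 ± 0.18 for Rars (adjusted p = 0.0163 each).

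The 2 subunits of cytosolic phenylalanyl-tRNA synthetase, which work as a tetramer of paired alpha and beta chains, did not move by the same amount. Farsb, the beta subunit, was at 58.4 and 77.0 FPKM in DKO-labelled, 42.9 and 54.4 FPKM in denervated WT and 24.6 and 29.9 FPKM in innervated WT soleus. Farsa, the alpha subunit, was at 12.7 and 14.0 FPKM in DKO-labelled, 16.0 and 20.4 FPKM in denervated WT and 11.9 and 13.5 FPKM in innervated WT soleus. Farsb separated every denervated library from the innervated ones, whereas for Farsa the DKO-labelled and innervated libraries overlapped. The log2 change in denervated against innervated WT was 0.86 ± 0.21 for Farsb (adjusted p = 0.0285) and 0.61 ± 0.18 for Farsa (adjusted p = 0.0499). The Farsa call was lost under 4 of 9 alternative settings, among them limma on log2 FPKM, and in 5 of 6 fits that left out 1 library. The difference between the subunits was not tested.

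Mars, for the methionyl enzyme, was at 32.1 and 31.4 FPKM in DKO-labelled, 30.3 and 36 FPKM in denervated WT and 20.7 and 24.2 FPKM in innervated WT soleus, so that all denervated libraries lay above the innervated ones. Its log2 change in denervated against innervated WT was 0.64 ± 0.16 (adjusted p = 0.0291), and the call was lost when only these 2 groups entered the fit and in 5 of 6 fits that left out 1 library, all but the one without denervated WT replicate 1. The Mars locus overlaps Ddit3, which encodes the stress factor CHOP, and reads shared by the 2 genes cannot be told apart without strand. Ddit3 was at 8.21 and 7.98 FPKM in DKO-labelled, 14.1 and 12.1 FPKM in denervated WT and 35.2 and 42.4 FPKM in innervated WT soleus, opposite in direction to Mars.

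**Figure D1:**
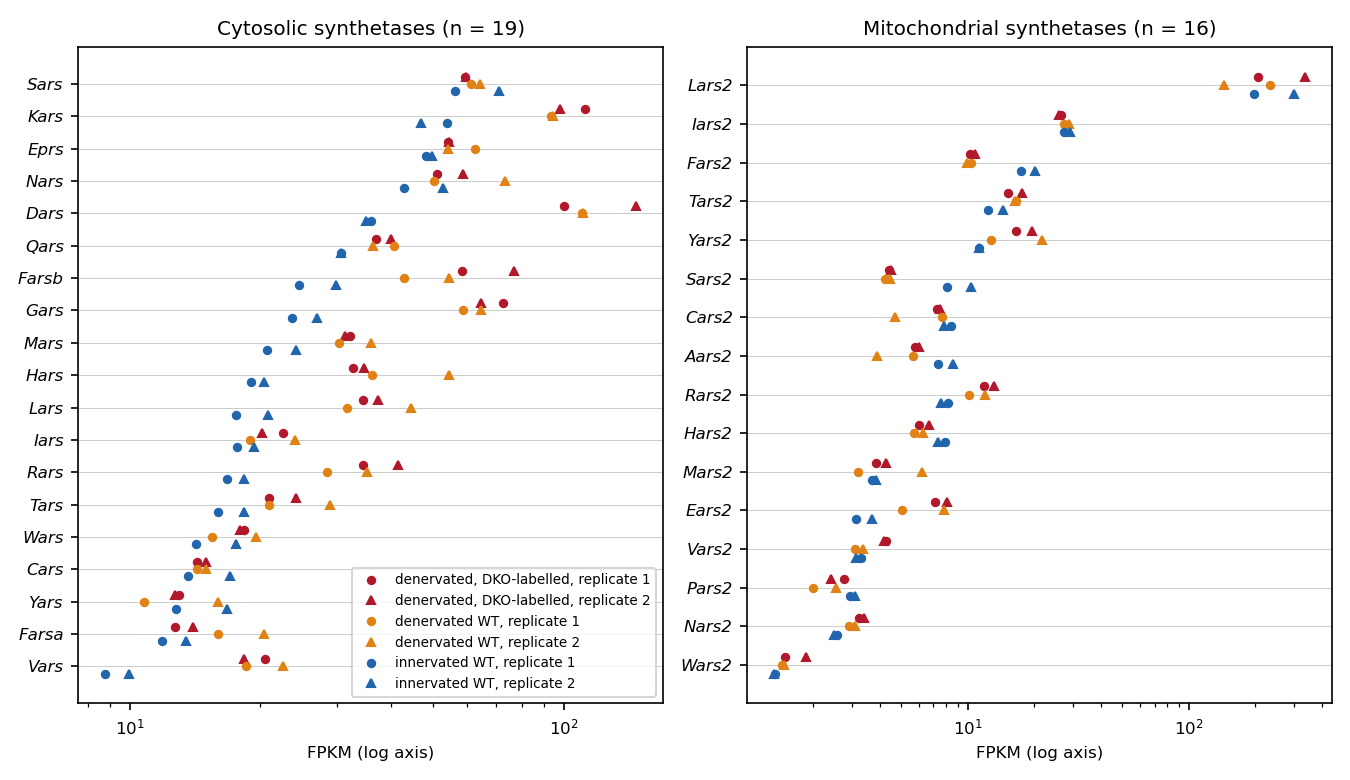
Level of each synthetase mRNA in FPKM on a log axis, for the cytosolic (left) and mitochondrial (right) enzymes, with genes ordered by their mean in innervated WT soleus; each point is 1 library, coloured by group and shaped by replicate. Dars, Gars, Vars and Kars show denervated libraries of both genotypes clear of the innervated ones, while Sars and Cars show the 3 groups together; Fars2 and Sars2 lie lower in every denervated library, and Lars2 stands far above the other mitochondrial enzymes at 144 to 337 FPKM.

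The other 9 cytosolic synthetases, Cars, Eprs, Iars, Nars, Qars, Sars, Tars, Wars and Yars, did not pass the test, with log2 changes from -0.06 to 0.59 in denervated against innervated WT (adjusted p = 0.0721 to 0.955). Tars, for the threonyl enzyme, came nearest, at 20.9 and 24.2 FPKM in DKO-labelled, 20.9 and 29.0 FPKM in denervated WT and 16.0 and 18.3 FPKM in innervated WT soleus. Qars, for the glutaminyl enzyme, was at 37.0 and 40.0 FPKM in DKO-labelled, 40.6 and 36.3 FPKM in denervated WT and 30.7 in both innervated WT libraries. For both genes the denervated libraries lay above the innervated ones, by less than the test could call (log2 change 0.59 ± 0.20 for Tars and 0.40 ± 0.14 for Qars, adjusted p = 0.0721 and 0.0753).

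Eprs, which fuses the glutamyl and prolyl enzymes in one chain, was at 54.1 and 54.4 FPKM in DKO-labelled, 62.3 and 54.2 FPKM in denervated WT and 48.1 and 49.8 FPKM in innervated WT soleus. Nars, for the asparaginyl enzyme, was at 51.1 and 58.7 FPKM in DKO-labelled, 50.3 and 73.3 FPKM in denervated WT and 42.9 and 52.6 FPKM in innervated WT soleus. Eprs kept the treatments apart by a small margin, while for Nars they overlapped. The log2 change in denervated against innervated WT was 0.30 ± 0.15 for Eprs and 0.41 ± 0.23 for Nars (adjusted p = 0.167 and 0.213).

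Sars, for the seryl enzyme, was the most abundant cytosolic synthetase by FPKM in both innervated libraries and showed no separation of the groups. Its level was 59.3 and 59.4 FPKM in DKO-labelled, 61.1 and 64.3 FPKM in denervated WT and 56.3 and 71.1 FPKM in innervated WT soleus. Cars, for the cysteinyl enzyme, was at 14.3 and 15.0 FPKM in DKO-labelled, 14.3 and 15.0 FPKM in denervated WT and 13.6 and 17.0 FPKM in innervated WT soleus. For both genes all denervated values lay inside the range of the innervated ones. Their log2 changes in denervated against innervated WT were 0.04 ± 0.16 and 0.01 ± 0.16 and were below 0 in limma on log2 FPKM.

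Iars, for the isoleucyl enzyme of the complex, was at 22.5 and 20.2 FPKM in DKO-labelled, 18.9 and 24.0 FPKM in denervated WT and 17.7 and 19.3 FPKM in innervated WT soleus. Wars, for the tryptophanyl enzyme, was at 18.3 and 18.0 FPKM in DKO-labelled, 15.5 and 19.5 FPKM in denervated WT and 14.2 and 17.6 FPKM in innervated WT soleus. Yars, for the tyrosyl enzyme, was at 13.0 and 12.7 FPKM in DKO-labelled, 10.8 and 16.0 FPKM in denervated WT and 12.8 and 16.8 FPKM in innervated WT soleus. The denervated and innervated WT libraries of these 3 genes overlapped. The Yars locus overlaps the entry C77080 and the Wars locus lies 97 bases from Wdr25, so part of their fragments may be shared. The joined entry of Aars and Exosc6 was at 29.8 and 24.7 FPKM in DKO-labelled, 27.7 and 37.5 FPKM in denervated WT and 26.6 and 38.7 FPKM in innervated WT soleus, again without separation (log2 change -0.05 ± 0.24 in denervated against innervated WT).

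Calls were spread over the known subdivisions of the class, which were drawn after the values were seen and carry no test. Of the 8 genes for enzymes of the multisynthetase complex, 5 rose (Dars, Kars, Lars, Mars and Rars), with a median log2 change of 0.77, and of the 11 outside it 5 rose (Farsa, Farsb, Gars, Hars and Vars), with a median of 0.59. By the fold of the active site, 4 of 9 class I enzymes (Lars, Mars, Rars and Vars) and 6 of 9 class II enzymes (Dars, Farsa, Farsb, Gars, Hars and Kars) rose, and Eprs, which holds one of each, did not pass the test. Set beside the promoter stretches shown above for Gars, Iars, Tars and Yars, 1 of these 4 genes (Gars) rose, as did 5 of the 8 cytosolic genes whose windows lack TGATGNAA. With CACGTG, 1 of 3 rose (Farsb), and without it 5 of 9. No window was found for Cars, Hars, Lars, Nars, Rars, Vars and Wars, so they are in none of these promoter counts. Hars, Lars, Rars and Vars among them rose, so the counts do not show whether genes with either pattern respond less.

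The spread between replicates was not the same for all libraries. Of the 19 cytosolic genes, 12 had a higher CPM in replicate 2 than in replicate 1 of DKO-labelled muscle (median log2 difference 0.08), 17 in denervated WT muscle (median 0.32) and 16 in innervated WT muscle (median 0.18). Over all genes the same median was -0.01 in denervated WT muscle. Without denervated WT replicate 2, 7 cytosolic genes were called higher with a class median of 0.47, and 0 mitochondrial genes were called higher and 2 lower. Without replicate 1 of that group, 12 cytosolic genes were called higher and 4 mitochondrial genes in each direction. Leaving out either innervated library brought the calls to 0 in both classes, with 177 genes in all called higher without replicate 1 and 83 without replicate 2, while the cytosolic class median was 0.53 and 0.69. The highest edgeR adjusted p over these fits was 0.0568 for Gars and 0.0673 for Dars.

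**Figure D2:**
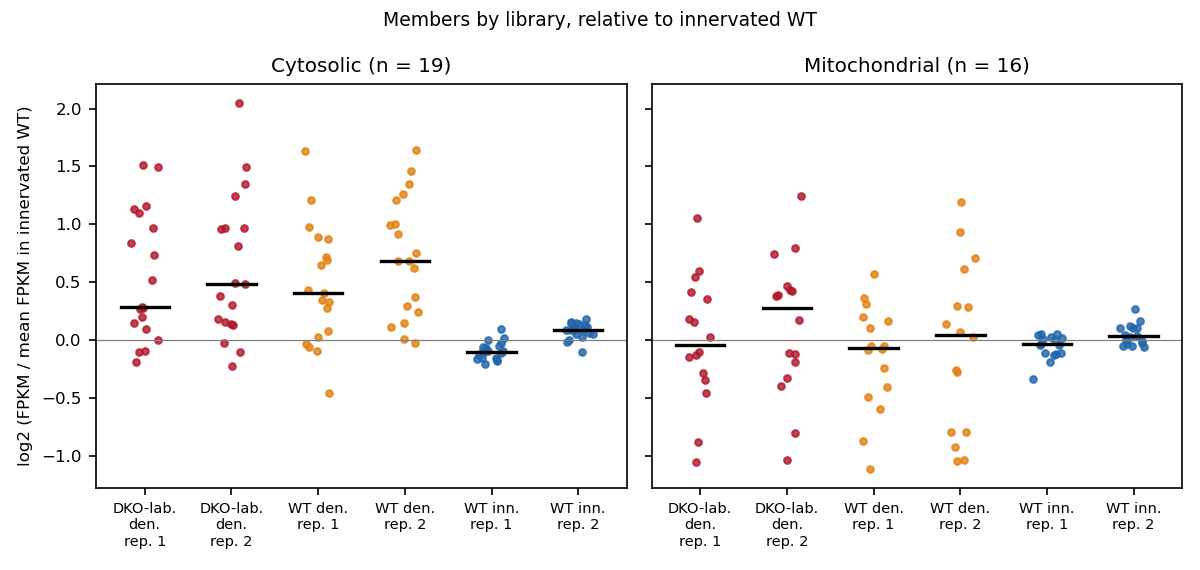
Each point is 1 synthetase in 1 library, as the log2 ratio of its FPKM to the gene's mean FPKM in innervated WT soleus; bars are the class medians, and points are spread sideways only for visibility. Cytosolic medians are 0.28 and 0.49 in DKO-labelled, 0.40 and 0.68 in denervated WT and -0.10 and 0.09 in innervated WT libraries, whereas the mitochondrial medians of all libraries lie between -0.07 and 0.28.

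By class median the mitochondrial enzymes were scarcer than the cytosolic ones. In denervated against innervated WT, 1 of 16 was called higher and 2 lower, shares below the 14.4% and 14.3% of all genes. The class median was 6.54 and 7.09 FPKM in DKO-labelled, 5.71 and 6.25 FPKM in denervated WT and 7.95 and 7.69 FPKM in innervated WT libraries, whereas the cytosolic median was 34.4 and 37.4, 31.6 and 36.3, and 19.0 and 20.8 FPKM in the same order of groups. The cytosolic median was thus 5.26 and 5.27 times the mitochondrial one in DKO-labelled, 5.53 and 5.81 times in denervated WT and 2.39 and 2.70 times in innervated WT libraries. The lower mitochondrial class median in denervated WT (a difference of -0.36 in median log2 level) depended on the scale, since on log2 CPM, with no length term, it was 0.08. The ratios of class medians rest in part on that difference. Gene by gene, the median log2 change in denervated against innervated WT was 0.61 for cytosolic and 0.08 for mitochondrial genes.

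Ears2, for the mitochondrial glutamyl enzyme, was at 7.08 and 8.08 FPKM in DKO-labelled, 5.06 and 7.79 FPKM in denervated WT and 3.12 and 3.71 FPKM in innervated WT soleus. In mitochondria this enzyme also charges the glutamine tRNA with glutamate, which is then converted on the tRNA. Denervated libraries lay above innervated ones without overlap, and the log2 change in denervated against innervated WT was 1.01 ± 0.27 (adjusted p = 0.0335). The call was lost when only the 2 groups were fitted and without any one of the 6 libraries except denervated WT replicate 1.

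Fars2, which charges mitochondrial phenylalanine tRNA as a monomer, was at 10.2 and 10.8 FPKM in DKO-labelled, 10.3 and 9.91 FPKM in denervated WT and 17.4 and 20.2 FPKM in innervated WT soleus. Sars2, for the mitochondrial seryl enzyme, was at 4.42 and 4.48 FPKM in DKO-labelled, 4.24 and 4.46 FPKM in denervated WT and 8.04 and 10.3 FPKM in innervated WT soleus. All 4 denervated libraries of each gene lay close together and below both innervated ones. In denervated against innervated WT the log2 change was -0.83 ± 0.16 for Fars2 (adjusted p = 0.0135) and -0.97 ± 0.20 for Sars2 (adjusted p = 0.0175). The Fars2 locus lies 53 bases from Lyrm4 and the Sars2 locus 209 bases from Mrps12. Ears2 likewise lies 134 bases from Ubfd1, Rars2 15 bases from Akirin2 and Vars2 146 bases from Gtf2h4. Fragments near these boundaries could belong to either gene.

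The remaining 13 mitochondrial genes did not pass the test in denervated against innervated WT, with log2 changes from -0.63 to 0.65 (adjusted p = 0.0665 to 0.812). Rars2, for the arginyl enzyme, was at 11.9 and 13.2 FPKM in DKO-labelled, 10.1 and 12 FPKM in denervated WT and 8.15 and 7.56 FPKM in innervated WT soleus. Aars2, for the alanyl enzyme, was at 5.79 and 6.04 FPKM in DKO-labelled, 5.68 and 3.88 FPKM in denervated WT and 7.37 and 8.56 FPKM in innervated WT soleus. Aars2 had log2 changes of -0.28 within the first run and -1.01 within the second. Both kept the treatments apart, Rars2 higher and Aars2 lower in denervated libraries, with log2 changes of 0.52 ± 0.18 and -0.63 ± 0.22 in denervated against innervated WT (adjusted p = 0.0665 and 0.071).

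Yars2, for the tyrosyl enzyme, was at 16.5 and 19.6 FPKM in DKO-labelled, 12.7 and 21.6 FPKM in denervated WT and 11.3 in both innervated WT libraries. Tars2, for the threonyl enzyme, was at 15.2 and 17.6 FPKM in DKO-labelled, 16.6 and 16.4 FPKM in denervated WT and 12.3 and 14.4 FPKM in innervated WT soleus. Both were higher in every denervated library without passing the test (log2 change 0.65 ± 0.27 and 0.36 ± 0.16 in denervated against innervated WT), and Yars2 had 0.20 within the first run and 0.99 within the second. Nars2 and Wars2, for the asparaginyl and tryptophanyl enzymes, had the same order at low levels, 3.23 and 3.40, 2.90 and 3.09, and 2.56 and 2.49 FPKM for Nars2 and 1.49 and 1.85, 1.44 and 1.48, and 1.35 and 1.33 FPKM for Wars2, in DKO-labelled, denervated WT and innervated WT libraries. Wars2 was the lowest member in every library.

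Hars2, for the histidyl enzyme, was at 6.00 and 6.68 FPKM in DKO-labelled, 5.73 and 6.30 FPKM in denervated WT and 7.87 and 7.34 FPKM in innervated WT soleus. Pars2, for the prolyl enzyme, was at 2.77 and 2.42 FPKM in DKO-labelled, 2.0 and 2.54 FPKM in denervated WT and 2.95 and 3.10 FPKM in innervated WT soleus. Cars2, for the cysteinyl enzyme, was at 7.30 and 7.50 FPKM in DKO-labelled, 7.65 and 4.67 FPKM in denervated WT and 8.37 and 7.81 FPKM in innervated WT soleus. These 3 had lower values in every denervated library, with log2 changes of -0.31 to -0.33 in denervated against innervated WT that did not pass the test. Cars2 had -0.07 within the first run and -0.63 within the second.

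Lars2, for the leucyl enzyme, was the most abundant mitochondrial member in every library, and its change had the largest standard error of all members. Its level was 205 and 337 FPKM in DKO-labelled, 234 and 144 FPKM in denervated WT and 197 and 300 FPKM in innervated WT soleus. The groups overlapped, and the log2 change in denervated against innervated WT of -0.32 ± 0.36 held opposite signs within the runs, 0.31 in the first and -0.97 in the second. Iars2, for the isoleucyl enzyme, was the next most abundant, at 26.3 and 26, 27.3 and 28.8, and 27.4 and 29.1 FPKM in DKO-labelled, denervated WT and innervated WT libraries, and overlaps Rab3gap2. Mars2, for the methionyl enzyme, was at 3.84 and 4.27, 3.2 and 6.19, and 3.70 and 3.86 FPKM in the same order, with the denervated WT libraries on either side of the rest and log2 changes of -0.19 within the first run and 0.70 within the second. Vars2, for the valyl enzyme, was at 4.29 and 4.19, 3.10 and 3.36, and 3.28 and 3.14 FPKM in the same order, which set the DKO-labelled libraries above all others.

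In 12 pairs a cytosolic and a mitochondrial gene share a symbol apart from the final 2, so each pair can be read within the same libraries. In 11 of these 12 pairs the log2 change in denervated against innervated WT was larger for the cytosolic gene, and the exception was Yars (-0.06) against Yars2 (0.65). In DKO-labelled denervated against innervated WT, which shares the innervated libraries, it was larger in 9 of the 12, the exceptions being Nars, Wars and Yars. Phenylalanine, glutamate and proline fall outside these pairs because their cytosolic enzymes are split or fused. Alanine falls outside because Aars had only its joined entry with Exosc6 (-0.05 in denervated against innervated WT, beside -0.63 for Aars2). In denervated against innervated WT, Farsa (0.61) and Farsb (0.86) lay above Fars2 (-0.83), whereas Eprs (0.30) lay below Ears2 (1.01) and above Pars2 (-0.33). Hars and Hars2 lie 74 bases apart on chromosome 18 of mm9, yet the FPKM ratio of Hars to Hars2 was 5.45 and 5.18 in DKO-labelled, 6.31 and 8.62 in denervated WT and 2.41 and 2.78 in innervated WT libraries. For Sars and Sars2 the ratio was 13.4 and 13.3 in DKO-labelled, 14.4 in both denervated WT and 7.0 and 6.87 in innervated WT libraries. Of the first pair Hars passed the test and Hars2 did not, and of the second Sars2 passed and Sars did not. Vars to Vars2 had ratios of 4.77 and 4.36 in DKO-labelled, 5.98 and 6.71 in denervated WT and 2.68 and 3.17 in innervated WT libraries. In 6 of the 12 pairs the ratios of both denervated WT libraries lay above those of both innervated ones. With 2 libraries a group, such an order can also come from replicate spread. No such shares were computed over other gene pairs, so neither this count nor those of larger changes carries a test.

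**Figure D3:**
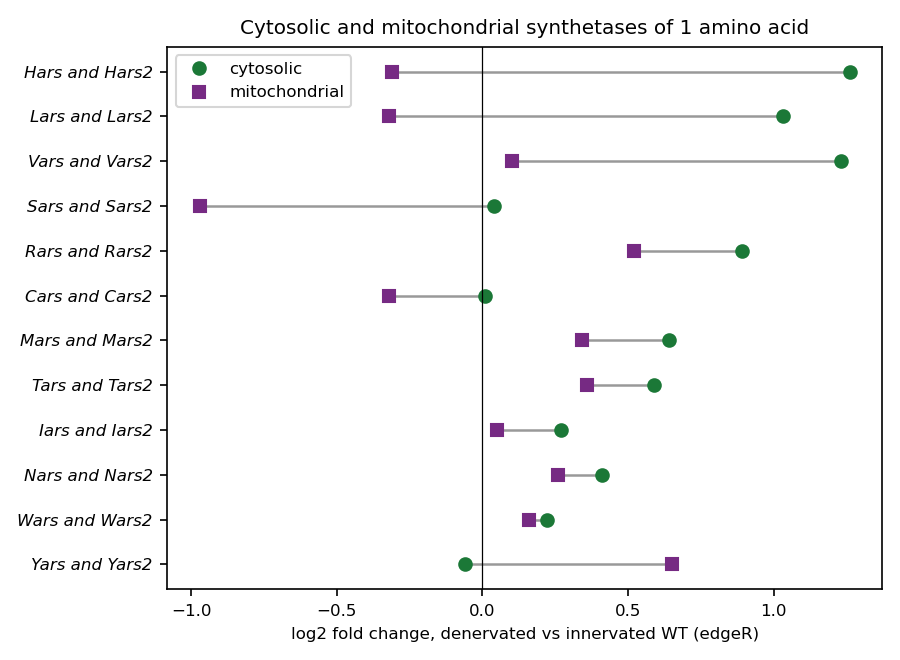
For each of the 12 pairs of genes whose symbols differ only by the final 2, the log2 fold change in denervated against innervated WT soleus of the cytosolic gene (circle) and the mitochondrial gene (square), joined by a line. Circles lie to the right of squares in all plotted pairs except Yars and Yars2, and the widest gap plotted is that of Hars (1.26) and Hars2 (-0.31).

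The second comparison, the one the series was built on, set DKO-labelled against WT soleus, both denervated for 3 days. No synthetase passed the test, 0 of 19 cytosolic and 0 of 16 mitochondrial, in a comparison where edgeR called 0.0245% of 12247 genes higher and 0.0163% lower, 3 and 2 genes. At an unadjusted p under 0.05 there were 0 cytosolic and 1 mitochondrial members, beside 748 genes in all, and DESeq2 and limma also called 0 members. Log2 changes ran from -0.43 to 0.45 over the cytosolic class and from -0.21 to 0.53 over the mitochondrial class, with medians of -0.02 and 0.13 beside -0.02 over all genes.

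Vars2 had the smallest unadjusted p of the members (0.032, edgeR, adjusted p = 0.754), with a log2 change of 0.44 ± 0.16 and both DKO-labelled libraries above both denervated WT ones. Farsa and Hars had values of -0.41 ± 0.18 and -0.43 ± 0.21, and Farsb had 0.45 ± 0.21, so that the 2 phenylalanyl subunits leaned in opposite directions (adjusted p = 0.847 to 0.887). Lars2 had the highest estimate, 0.53 ± 0.36, with -0.18 within the first run and 1.23 within the second. With standard errors of 0.13 to 0.36 over the members, changes of this size could not be told from replicate spread, and the absence of calls does not show that the genotypes are alike.

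The third comparison, DKO-labelled denervated against innervated WT soleus, shares the innervated libraries with the first, so its values are given beside those and not as separate evidence. Of 19 cytosolic genes 9 were higher and 0 lower, and of 16 mitochondrial genes 3 were higher and 2 lower, where 15.2% of all genes were called higher and 16.2% lower. The class medians were 0.44 and 0.17 on the log2 scale, beside 0.01 over all genes. The log2 change was 1.74 ± 0.21 for Dars (adjusted p = 0.00322) and 1.47 ± 0.16 for Gars (adjusted p = 0.00243). It was 1.31 ± 0.22 for Farsb (adjusted p = 0.00759) and 1.21 ± 0.17 for Vars (adjusted p = 0.0047). Kars (1.14), Rars (1.11), Lars (0.92), Hars (0.83) and Mars (0.60) made up the 9. Farsa was not called here, while Ears2 (1.29 ± 0.27), Rars2 (0.66 ± 0.18) and Vars2 (0.55 ± 0.16) were the higher mitochondrial members. Fars2 and Sars2 were again the lower ones, at -0.73 ± 0.16 and -0.88 ± 0.20. Without either innervated library 3 cytosolic genes were called, and without DKO-labelled replicate 2 there were 5; Dars and Gars were called whichever of the 6 libraries was left out.

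**Figure D4:**
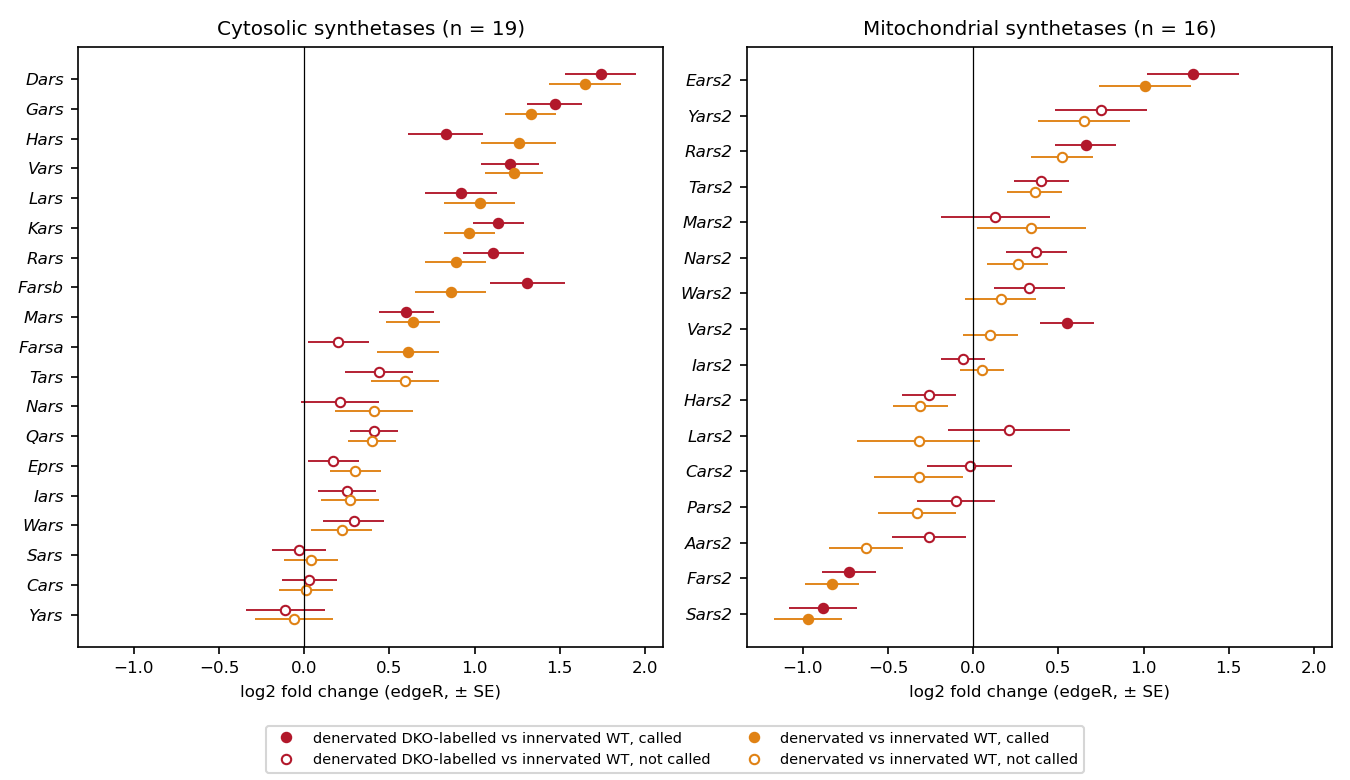
Log2 fold change ± SE from edgeR for each synthetase in denervated DKO-labelled against innervated WT soleus (red) and denervated against innervated WT soleus (orange), with filled points called at an adjusted p under 0.05. Both comparisons share the innervated libraries. Dars to Mars lie right of 0 in both, Sars, Cars and Yars lie near 0, and the mitochondrial genes run from Ears2 (1.29 and 1.01) to Sars2 (-0.88 and -0.97).

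Partner genes of the synthetases are given from lists chosen with earlier results of these data known, as counts in denervated against innervated WT, where 14.4% of all genes were called higher and 14.3% lower. Of the 3 scaffold genes of the multisynthetase complex, 2 rose. Eef1e1, which encodes the scaffold protein AIMP3, was at 27.2 and 34.3 FPKM in DKO-labelled, 22.3 and 49.4 FPKM in denervated WT and 11.2 and 10.7 FPKM in innervated WT soleus (log2 change 1.71 ± 0.38, adjusted p = 0.0203). Aimp2 was at 72.2 and 102 FPKM in DKO-labelled, 65.2 and 62.7 FPKM in denervated WT and 39.9 and 43.7 FPKM in innervated WT soleus (0.69 ± 0.20, adjusted p = 0.0451), and Aimp1 did not pass the test.

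Of 6 cytosolic elongation factor genes, whose proteins bring charged tRNA to the ribosome or move it along, 3 rose and 1 fell. Eef1a1 was at 887 and 986 FPKM in DKO-labelled, 965 and 858 FPKM in denervated WT and 346 and 248 FPKM in innervated WT soleus. Eef1a2, the isoform typical of adult muscle and neurons, was at 254 and 144 FPKM in DKO-labelled, 254 and 160 FPKM in denervated WT and 653 and 755 FPKM in innervated WT soleus. The order of the 2 isoforms was thus reversed between denervated and innervated libraries, with log2 changes of 1.67 ± 0.22 and -1.68 ± 0.34 (adjusted p = 0.00571 and 0.0156). Eef1b2, a nucleotide exchange subunit, also rose (1.16 ± 0.15, adjusted p = 0.00499).

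Of 12 mitochondrial partners tested, 1 rose and 2 fell, shares near those of all genes (14.4% higher and 14.3% lower), with a median log2 change of -0.18. Tufm, the mitochondrial elongation factor that carries charged tRNA, was at 37.9 and 34.1 FPKM in DKO-labelled, 37.7 and 31.5 FPKM in denervated WT and 60.9 and 67.0 FPKM in innervated WT soleus (-0.80 ± 0.16, adjusted p = 0.0145). Qrsl1, a subunit of the amidotransferase that turns the product of Ears2 into glutamine-loaded tRNA, was at 6.67 and 7.26 FPKM in DKO-labelled, 6.73 and 7.84 FPKM in denervated WT and 14.5 and 12.9 FPKM in innervated WT soleus (-0.87 ± 0.18, adjusted p = 0.017). Ears2 and Qrsl1, successive steps of one route, were thus called in opposite directions. Looked up outside the naming rule, Gatc and Pet112l, for the other subunits of that amidotransferase, were not called by edgeR. Their log2 changes were -0.09 ± 0.2 and -0.21 ± 0.15 (adjusted p = 0.757 and 0.319), so of its subunits only Qrsl1 was called. Trnt1, which adds the CCA end to tRNAs of both compartments, rose (1.27 ± 0.36, adjusted p = 0.0413). It was at 16.7 and 22.0 FPKM in DKO-labelled, 15.2 and 32.0 FPKM in denervated WT and 10.5 and 9.04 FPKM in innervated WT soleus. Pstk, which acts on the selenocysteine tRNA, was the only gene called of 6 for tRNA export, editing and selenocysteine charging. Its level fell (-1.48 ± 0.18, adjusted p = 0.00438).

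Of 10 amino acid transporter genes tested, 4 rose and 1 fell, beside 14.4% and 14.3% of all genes. Slc7a5, the large neutral amino acid exchanger LAT1, was at 13.3 and 20.6 FPKM in DKO-labelled, 17.0 and 53.4 FPKM in denervated WT and 1.92 and 2.90 FPKM in innervated WT soleus (3.95 ± 0.60, adjusted p = 0.00729). Slc38a2 (1.40 ± 0.24) and Slc3a2, the partner chain of Slc7a5 (1.37 ± 0.24), also rose.

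Of 20 integrated stress response genes, the set that ATF4 is known to act in, 4 rose and 5 fell, beside 14.4% and 14.3% of all genes, with a median log2 change of -0.17. Gadd45a (5.65 ± 0.59) and Eif4ebp1 (2.09 ± 0.36) rose, and Ddit3 fell (-1.46 ± 0.18, adjusted p = 0.00493). Gadd45a was at 489 and 862 FPKM in DKO-labelled, 399 and 1080 FPKM in denervated WT and 15.9 and 14.5 FPKM in innervated WT soleus. Eif4ebp1 was at 191 and 226, 145 and 284, and 43.1 and 64.7 FPKM in the same order. The denervated WT replicates of both genes thus lay far apart. Atf4 itself, looked up outside the naming rule, was at 53.4 and 72.8 FPKM in DKO-labelled, 66.8 and 135 FPKM in denervated WT and 108 and 151 FPKM in innervated WT soleus, with overlapping WT groups and no call (-0.29 ± 0.36, adjusted p = 0.567). Of 7 genes of the Myc and Max network tested, 1 rose and 1 fell, shares near those of all genes, with a median log2 change of -0.13. Myc rose (3.24 ± 0.46, adjusted p = 0.00634) and Mlxip fell (-0.62 ± 0.18). Myc was at 7.01 and 7.87 FPKM in DKO-labelled, 5.86 and 15.2 FPKM in denervated WT and 1.16 and 1.19 FPKM in innervated WT soleus. In DKO-labelled against WT, both denervated, 0 genes of any of these lists were called.

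Some genes of the marker lists for the cells of a muscle were called in denervated against innervated WT too. Over all genes, 14.4% were called higher and 14.3% lower there. The part of the markers in the synthetase changes was not tested. Summed FPKM of 7 muscle fibre markers was 9200 to 9590 in DKO-labelled, 10800 to 11600 in denervated WT and 24500 to 26800 in innervated WT libraries, with 4 of 6 tested lower in denervated WT and Acta1 listed at 0 in every library, while Ckm was at 3300 FPKM or more in each. Endothelial markers summed to 26.8 to 40.3, 33.5 to 39.3 and 76.9 to 85.9 FPKM in the same order of groups, with 4 of 4 lower. Schwann cell (3 of 5), smooth muscle and pericyte (3 of 3), satellite cell (1 of 3) and fibroblast markers (1 of 4) were called lower in denervated WT, and none of them higher. In lists this short, a single call does not set a cell type apart from the shares over all genes. Neutrophil markers, S100a8 and S100a9, summed to 92.1 to 121 FPKM in DKO-labelled, 29.7 to 71.3 in denervated WT and 4.08 to 12.3 in innervated WT libraries, with S100a8 called higher in denervated WT and carrying most of the sum in the denervated libraries. S100a9 was not called, at 5.96 and 2.39 FPKM in DKO-labelled, 4.42 and 13.4 FPKM in denervated WT and 1.93 and 6.55 FPKM in innervated WT libraries. Macrophage markers summed to 132 to 221, 185 to 227 and 113 to 203 FPKM in the same order, with Cd68 called higher (1 of 6), and T cell markers summed to at most 0.349 FPKM in any library.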

How the data were processed

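Polyadenylated RNA of 6 soleus libraries was analysed from the deposited tables, 1 per library. Tools listed in the submitters' processing notes are Cuffdiff 2.0.2, TopHat2 2.0.3, Bowtie2 2.0.0.7, Trim Galore 0.2.1 and CASAVA 1.8.2, with mm9 as build. What each did, the annotation and the strandedness were not given in the sources used here. According to the deposited tables and per the file headers, the authors gave FPKM, a signal of externally scaled fragments (raw fragments times 1 factor per library, not used for tests) and raw fragments. The deposited raw fragments are estimated counts, 88.4% to 89.0% of them whole within 1e-06, and were rounded. Each gene is listed 3 times and was read once.

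Groups came from the sample titles, and replicates were numbered in accession order. The main test was edgeR 4.0.16 (R 4.3.3), quasi-likelihood with TMM scaling, on all 6 libraries and 12247 genes averaging 0.5 FPKM or more, with Benjamini-Hochberg adjustment over all of them, a call at an adjusted p under 0.05, two-sided, 3 residual degrees of freedom and a common coefficient of biological variation of 0.222. SEs are log2 fold changes over the root of the F statistic. Alternatives used DESeq2 1.42.0, its size factors, limma 3.58.1 on log2(FPKM + 0.5) or log2(FPKM + 1) or with quantile normalization, other filters (none, or a mean FPKM of at least 2), only the 2 groups compared, runs of sample numbers as a block, and 1 library left out. The members and lists were chosen with earlier results of these data known, so no p was computed over a class. All members are named, with up to 3 called genes of smallest p from each other list, and exceptions are said where they stand. The sums of several lines of 1 symbol were used. Promoter windows are RefSeq, GRCm38, while loci are those of the files on mm9; no coordinates were converted.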

Additional observations from a re-analysis of the deposited data

How the results depend on the processing

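Over the 8 alternatives that keep all 6 libraries 9 to 12, and in the fit of only the 2 groups 8, cytosolic genes were called higher in denervated against innervated WT and 0 lower. DESeq2 called 2 mitochondrial genes higher and the fit of only the 2 groups 0. The mitochondrial median was 0.09 with DESeq2 or its size factors, 0.0 with limma on log2(FPKM + 0.5) or log2(FPKM + 1), 0.05 with quantile normalization, 0.14 with no filter and -0.01 at a mean FPKM of at least 2. In DKO-labelled against denervated WT, genes called higher and lower numbered 5 and 5 (DESeq2 size factors), 80 and 101 (DESeq2), 17 and 18 or 16 and 18 (limma, both pseudocounts), 14 and 16 (quantile), 29 and 31 (no filter) and 0 and 0 (only the 2 groups), with 0 lower above a mean FPKM of 2, and 0 members under each. In DKO-labelled against innervated WT the mitochondrial median was 0.10 (limma, both pseudocounts), 0.25 (quantile), 0.23 (no filter) and 0.09 (mean FPKM of at least 2). On log2 CPM, class medians differed by 0.08 (mitochondrial, denervated against innervated WT), -0.07 and 0.32 (cytosolic and mitochondrial, DKO-labelled against denervated WT) and 0.61 and 0.40 (DKO-labelled against innervated WT). Before the start only, 3 cytosolic windows held the C/EBP-ATF core and 0 mitochondrial windows the E-box. The cause of these moves was not tested.

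Sample numbers fall into 2 runs with 1 library per group. With the runs as a replicate block, 11 cytosolic genes were called higher in denervated against innervated WT and 1 gene was called lower in DKO-labelled against denervated WT. Deviations of libraries of 1 run correlated at 0.228, 0.153 and 0.455 between groups; the numbers follow accession order and do not establish pairing.

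Uncalled genes changed sign in denervated against innervated WT: Cars (-0.06, -0.06 and -0.05 in the 3 limma fits, -0.04 at a mean FPKM of at least 2, -0.13 without innervated replicate 1, -0.03 without denervated WT replicate 2, up to 0.18 without other libraries), Sars (-0.01, -0.01, -0.02, -0.01, -0.11 and 0.0 in the same order, up to 0.21), Iars2 (-0.01 in the first 4 of these), Yars (0.01 with no filter, 0.19 without denervated WT replicate 1, 0.14 without innervated replicate 2, down to -0.37), the joined Aars and Exosc6 entry (0.01 in the 3 limma fits and with no filter, 0.11 and 0.25 without the same 2 libraries, down to -0.30), Lars2 (0.01 without innervated replicate 2, down to -0.71) and Mars2 (-0.22 without denervated WT replicate 2, up to 0.73).

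Leaving out 1 library at a time gave these ranges. In denervated against innervated WT, 83 to 2610 genes were called higher and 119 to 2747 lower, with 0 to 12 cytosolic genes higher, 0 to 4 mitochondrial genes higher and 0 to 4 lower, and medians of 0.47 to 0.77 (cytosolic) and -0.01 to 0.12 (mitochondrial). In DKO-labelled against denervated WT, 0 to 45 genes were higher and 0 to 74 lower, 0 members among them, with medians of -0.11 to 0.11 and 0.06 to 0.19. In DKO-labelled against innervated WT, 245 to 2713 genes were higher and 416 to 2812 lower, with 3 to 11 cytosolic genes higher, 0 to 4 mitochondrial genes higher and 0 to 2 lower, and medians of 0.35 to 0.55 and 0.0 to 0.31. Where a group kept 1 library, that library was assumed to vary like the other groups. With 2 libraries a group, SEs of 0.13 to 0.36 limit what could be called.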
